A study of Mus musculus with 24 samples.

Results

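A set of 10 genes of metal buffering and antioxidant defence was followed through cultured and freshly isolated mouse astrocytes: the metallothioneins Mt1, Mt2 and Mt3, and 7 genes long used as readouts of the transcription factor NRF2, namely Hmox1, Nqo1, Gclc, Gclm, Slc7a11, Txnrd1 and Srxn1. They were taken by name from a list, matched through the Gencode mouse annotation, and made up 10 of the 49671 genes in the count table. All 10 were kept by the low-count filter, as were 19691 genes in all. The rule used no measured value, although the set was drawn up with earlier results of these data known.

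Polyadenylated RNA was sequenced from 6 groups of 4 libraries each. Neonatal astrocytes (neoAC) came from C57BL/6J mice 4 to 8 days old and adult astrocytes (AdAC) from mice 100 to 140 days old of the same strain, with 2 mice pooled for an isolation. Cells were dissociated with enzymes and captured on magnetic beads against ACSA-2, a surface antigen encoded by Atp1b2, and were then either snap frozen (direct) or kept for 7 to 10 days in 1 commercial astrocyte medium (CellC). The adult protocol had removal steps for debris and red blood cells that the neonatal protocol lacked. For neonatal cells the authors took cerebral tissue and removed the meninges, a step not named for adult brains. For direct adult isolation they removed olfactory bulb and cerebellum, and this step is not named again for adult cultures. Age, dissociation kit and dissected tissue therefore cannot be told apart. Neural stem cells (NSC) of passages 50 to 60 were derived from a single embryonic stem cell line of the C57BL/6N substrain and grown with FGF and EGF, each at 20 ng/ml. Exposing them to BMP4 at 20 ng/ml over 3 to 5 days gave the astrocytes called AGES. For this step the paper names BMP4 as the only added factor, without FGF or EGF, and another coating of the dishes. Between AGES and NSC, added BMP4, absent FGF and EGF, and coating therefore cannot be told apart. NSC and AGES grew in N2B27 medium, which holds 55 µM 2-mercaptoethanol, and the primary cultures did not share that medium. Origin, substrain and medium therefore cannot be told apart where AGES are set against primary cultures.

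Metallothioneins are small cysteine-rich proteins that bind zinc and copper. Mt1 and Mt2 are induced by metals through the zinc sensor MTF1 and by glucocorticoids, whereas Mt3 is the brain-enriched member of the family. NRF2, encoded by Nfe2l2, is held back by KEAP1, and when electrophiles or oxidants modify KEAP1 it accumulates and drives genes with an antioxidant response element (ARE). In the brain, astrocytes are known for strong NRF2 activity and for supplying neurons with glutathione precursors.

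The 3 metallothionein genes lie on the plus strand of chromosome 8 in the GRCm38 build, in the order Mt3 (94152607 to 94154146), Mt2 (94172664 to 94173568) and Mt1 (94179082 to 94180327). A gap of 5513 bases separates Mt2 from Mt1, and 18517 bases lie between Mt3 and Mt2. Exons of Mt2 overlap the opposite-strand gene Gm45774 over 432 bases, and the strand setting of the counting is not given in the sources used here, so reads there cannot be assigned with certainty. Exons of Gclm overlap Gm17494 on the opposite strand over 296 bases and Gm6061 on the same strand over 244 bases.

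Promoters of 2 gene pairs are shown because their genes moved apart in these libraries: the neighbours Mt1 and Mt2, whose ratio changed between groups, and Txnrd1 and Slc7a11, which moved in opposite directions in culture. Each is the stretch of 250 bases before a RefSeq transcription start on GRCm38.p6, read 5′ to 3′ on the gene's strand. Promoters were found for 8 of the 10 genes, which left out Hmox1 and Gclc. In Mt1 and Mt2 the capitals mark matches to the core of the metal response element (MRE, TGCACNC or TGCGCNC on either strand), and in Txnrd1 they mark the ARE core TGACNNNGC on either strand.
Mt1, chr8:94178839-94179088, plus strand: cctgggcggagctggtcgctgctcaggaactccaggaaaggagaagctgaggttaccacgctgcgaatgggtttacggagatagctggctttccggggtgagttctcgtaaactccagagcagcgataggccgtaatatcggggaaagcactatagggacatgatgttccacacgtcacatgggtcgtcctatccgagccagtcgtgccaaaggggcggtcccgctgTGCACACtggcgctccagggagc
Mt2, chr8:94172368-94172617, plus strand: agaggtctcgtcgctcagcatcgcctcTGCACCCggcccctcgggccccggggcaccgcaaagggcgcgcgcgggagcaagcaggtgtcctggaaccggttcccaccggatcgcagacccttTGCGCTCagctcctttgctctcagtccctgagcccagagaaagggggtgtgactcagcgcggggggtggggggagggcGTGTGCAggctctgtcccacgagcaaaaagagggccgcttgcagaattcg
Txnrd1, second of 3 listed starts, chr10:82858956-82859205, plus strand: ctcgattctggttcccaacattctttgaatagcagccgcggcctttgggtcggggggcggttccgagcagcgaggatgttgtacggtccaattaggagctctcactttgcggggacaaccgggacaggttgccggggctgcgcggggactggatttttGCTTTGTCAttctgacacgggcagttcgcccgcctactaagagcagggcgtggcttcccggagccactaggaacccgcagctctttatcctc
Slc7a11, chr3:50443614-50443863, minus strand: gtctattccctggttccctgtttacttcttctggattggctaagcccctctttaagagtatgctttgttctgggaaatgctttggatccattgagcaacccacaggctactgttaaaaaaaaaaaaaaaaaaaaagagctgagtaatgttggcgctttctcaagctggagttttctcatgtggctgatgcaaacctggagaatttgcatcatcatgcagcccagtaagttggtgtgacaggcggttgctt
Over the whole window of 300 bases, which runs to 50 bases past the start, Mt1 held 3 MRE matches, Mt2 held 4 and Mt3 held 1, and outside the family Gclm held 3 and Srxn1 held 1. Among 32851 promoter windows, 25.7% held at least 1 such match and 0.518% held 4 or more. Mt2 also held 1 ARE match, whose first letters are the AP-1 motif TGACTCA, while neither Mt1 nor Mt3 held one inside its window. Each window hangs on the listed start, and matches outside it were not counted for any gene. ARE matches were present in 12.4% of all windows. Gclm, Srxn1 and the second start of Txnrd1 each held 1, while Slc7a11, Nqo1 and the other listed starts of Txnrd1 held none. Which start of Txnrd1 these cells used was not tested, so these matches do not set Txnrd1 apart from Slc7a11. A match is a run of letters and not a measured binding site.

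The libraries held 27904126 to 37997368 counts, with a median of 32239904. Values are CPM, counts divided by library size in units of 1e6, after scaling by TMM. TMM assumes that most genes are level between libraries, whereas large shares of all genes were called in each comparison here. Replicate 4 of neoAC direct stood apart from its group, with 1.94% mitochondrial counts against 0.990% to 1.04%, and differed from the other 3 by a chi-square of 39.7 to 64.9 per gene, where those differed among themselves by 11.4 to 16.2. Without it, 1 of the 30 results for the 10 genes that use neoAC direct changed its call, that of Mt3 between the direct isolates. Other groups were uneven by the same chi-square. AdAC CellC replicate 1 differed from its group by 38.7 to 58.6 per gene, against 10.1 to 14.5 among the others. NSC replicate 2 differed by 52.8 to 76.7, against 11.1 to 28.7 among the others. In AGES, replicates 1 and 2 differed by 12.7 and every other pair by 39.2 to 71.2. The spread was smaller for neoAC CellC replicate 1, at 21.4 to 37.5 against 14.6 to 16.7. For AdAC direct replicate 4 it was 14.2 to 30.3 against 6.02 to 11.7. Marker genes set the frame for what the cells were. The summed RNA level of 6 astrocyte markers was 11999 to 12536 CPM in AdAC direct and far lower, at 606 to 1036 CPM, in AdAC CellC. At the protein level, the paper reported most cells of its adult cultures as GFAP-positive by staining. Markers of mature oligodendrocytes summed to 22447 to 25356 CPM in AdAC direct, to 3601 to 9341 CPM in AdAC CellC and to no more than 142 CPM in every neonatal library. In bulk RNA, fewer cells of a type and less RNA per cell cannot be told apart. Early genes that respond to tissue dissociation (Fos, Jun, Egr1, Atf3 and Hspa1a) summed to 6533 to 9146 CPM in neoAC direct, to 959 to 1477 CPM in AdAC direct and to no more than 530 CPM in every culture.

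Metallothionein transcripts were abundant in AGES and in neonatal cultures and scarce in NSC. Mt1 stood at 42.7, 55.2, 44.1 and 46.2 CPM in the 4 NSC libraries and at 2529, 2140, 2552 and 2926 CPM in AGES. It stood at 261, 277, 305 and 211 CPM in neoAC direct, at 1474, 1801, 2038 and 1654 CPM in neoAC CellC, at 646, 543, 570 and 456 CPM in AdAC direct and at 236, 283, 260 and 276 CPM in AdAC CellC. Libraries of AdAC CellC and neoAC direct overlapped, and no other neighbours in the order of the 6 groups did.

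Mt2 had the widest range of the family. NSC libraries held 1.86, 2.64, 2.48 and 1.84 CPM, against 605, 509, 562 and 440 CPM in AGES and 1528, 2000, 2058 and 1853 CPM in neoAC CellC. The other primary groups lay between these levels, at 164, 169, 191 and 172 CPM in neoAC direct, 385, 326, 333 and 297 CPM in AdAC direct and 277, 361, 297 and 338 CPM in AdAC CellC. The highest group mean was 843 times the lowest, and only the 2 adult groups overlapped as neighbours.

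Mt3 followed Mt1 closely. It stood at 54.6, 44.2, 67.2 and 58.9 CPM in NSC, 2129, 1704, 2063 and 2666 CPM in AGES and 1394, 1406, 1735 and 1366 CPM in neoAC CellC. In neoAC direct it stood at 542, 645, 686 and 395 CPM, in AdAC direct at 536, 516, 507 and 403 CPM and in AdAC CellC at 217, 270, 237 and 284 CPM. AGES overlapped with neoAC CellC, and the directly isolated groups overlapped with each other. Over the 24 libraries Mt1 and Mt3 had the smallest difference in pattern of any pair of the 10 genes, with a root mean square difference of 0.50 between centred log2 CPM, and Mt1 and Mt2 differed by 1.63.

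**Figure D1:**
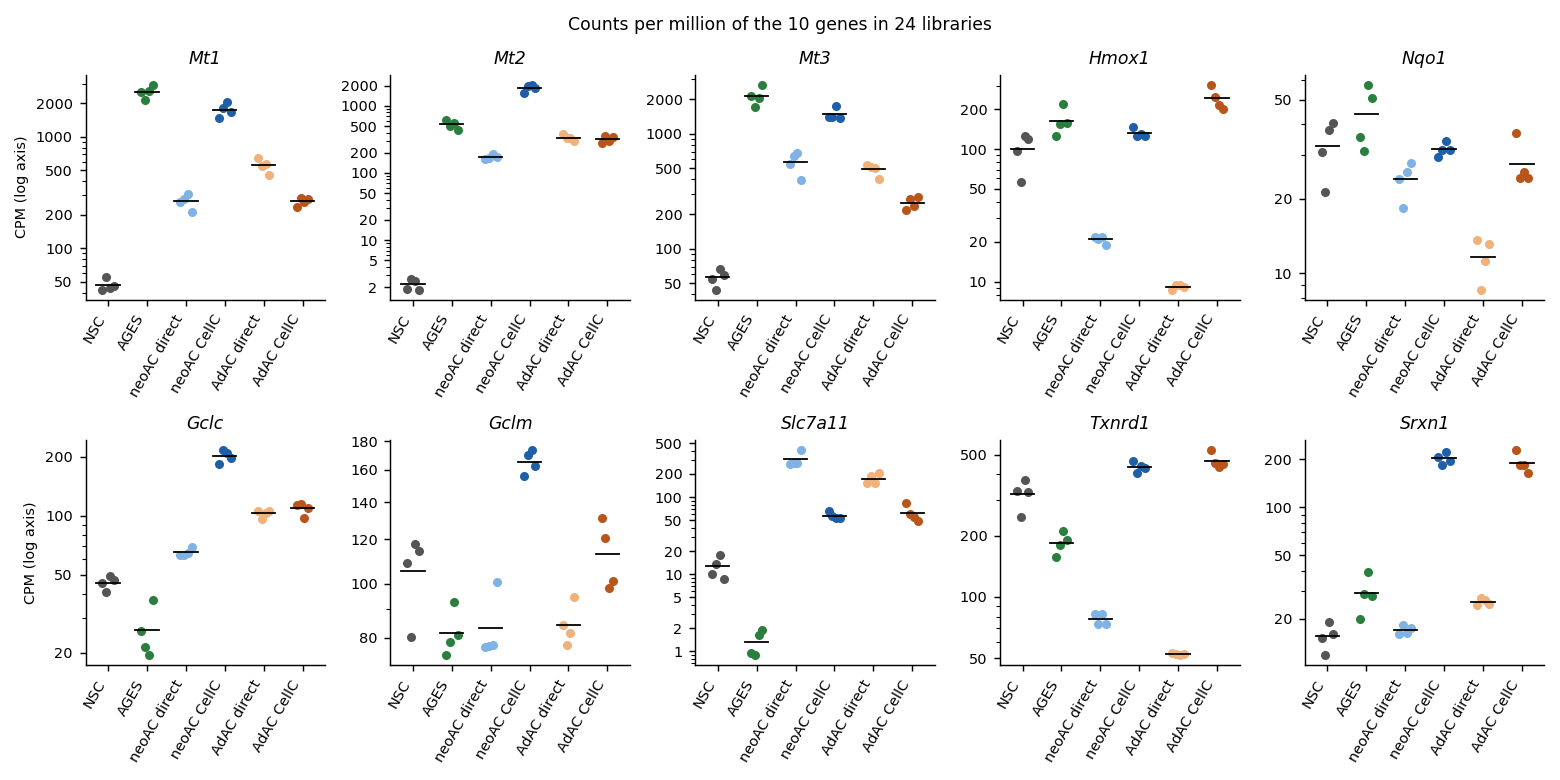
Level of each gene in each of the 24 libraries (points, CPM on a log axis) with the mean of the 4 libraries of a group (line). The metallothioneins were lowest in NSC, while Hmox1 and Txnrd1 were lowest in AdAC direct and Slc7a11 was lowest in AGES.

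The balance of the neighbouring genes Mt2 and Mt1 differed between sources of cells. Mt2 reached 0.0469 ± 0.00708 of the Mt1 level in NSC and 0.212 ± 0.0419 in AGES (CPM ratio, SD, n = 4). The ratio was 0.670 ± 0.0975 in neoAC direct and 0.609 ± 0.0305 in AdAC direct, and 1.07 ± 0.0544 in neoAC CellC and 1.20 ± 0.0590 in AdAC CellC. Every library of a primary culture lay above every directly isolated library, at both ages, and every stem-cell library lay below them all. Mt3 stood at 2.13 ± 0.203 times Mt1 in neoAC direct, and its group means lay between 0.839 and 1.22 elsewhere.

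**Figure D2:**
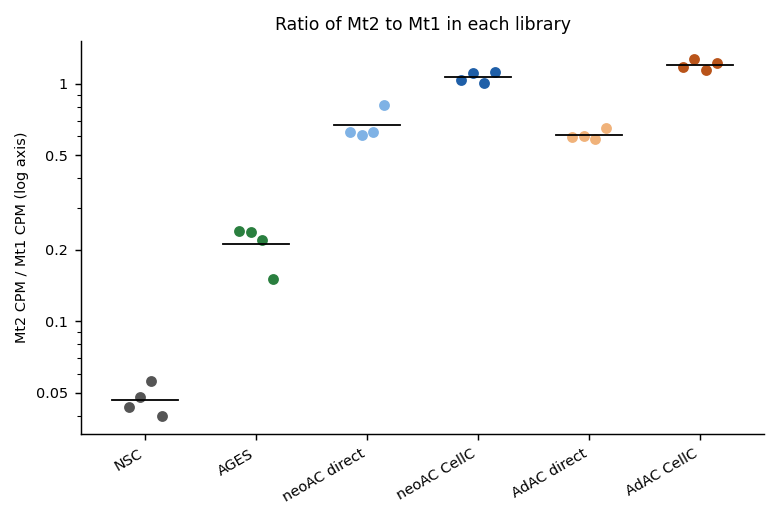
Ratio of Mt2 CPM to Mt1 CPM in each library (points, log axis) with the mean of 4 libraries (line). NSC lie at 0.0399 to 0.0563 and AGES at 0.15 to 0.239, below all 16 primary libraries.

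Scaled to exon length, which is needed to set genes against each other, Mt2 was the most abundant member in neoAC CellC at 3163 ± 404 CPM per kb, with Mt1 at 1398 ± 191 and Mt3 at 1384 ± 163 CPM per kb (SD, n = 4). In AGES the order turned, with Mt1 at 2036 ± 258, Mt3 at 2008 ± 372 and Mt2 at 899 ± 121 CPM per kb. The exon length of Mt1, 1246 bases, covers its whole locus in the annotation, which lowers its value per kb. Of the 588 exon bases of Mt2, 432 overlap Gm45774, where reads cannot be assigned with certainty, so its value per kb is uncertain. Lengths are from Gencode M21, another release than the paper names for its counting.

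Whether culture changes these genes was asked by setting CellC against direct at each age, with edgeR's quasi-likelihood test and p-values adjusted by Benjamini-Hochberg over all 19691 genes. In neonatal cells 8 of the 10 genes were higher in culture, where 34.4% of all genes were, and 1 was lower, where 31.3% were. The median log2 change of the 10 was 2.06, against 0.041 over all genes. In adult cells 5 were higher, against 38.8% of all genes, 3 were lower, against 39.2%, and the median was 0.25.

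The metallothioneins rose in neonatal culture and did not rise in adult culture. Mt1 rose by 2.72 ± 0.13 on the log2 scale (SE, adjusted p = 4.2e-15), Mt2 by 3.42 ± 0.13 (adjusted p = 3.7e-17) and Mt3 by 1.38 ± 0.16 (adjusted p = 3.0e-08) in neonatal cells, with no overlap of libraries. In adult cells Mt1 fell by 1.07 ± 0.13 (adjusted p = 2.9e-08) and Mt3 fell by 0.96 ± 0.16 (adjusted p = 4.7e-06). Mt2 did not pass the test there, at -0.08 ± 0.12 (adjusted p = 0.56). The difference between the ages, tested as an interaction, was 3.80 ± 0.18 for Mt1 (adjusted p = 3.0e-15), 3.49 ± 0.17 for Mt2 (adjusted p = 3.6e-15) and 2.34 ± 0.22 for Mt3 (adjusted p = 1.1e-09).

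The drop of Mt1 and Mt3 in adult culture moved with the drop of the astrocyte and oligodendrocyte marker sums given above, and the part of either in the result was not tested. The markers of mural cells and fibroblasts moved the other way, from 195 to 244 CPM in AdAC direct to 1063 to 1498 CPM in AdAC CellC. In neonatal culture the astrocyte sum also fell, from 17812 to 20850 CPM to 6434 to 7469 CPM, while the metallothioneins rose. Ependymal markers rose there from 121 to 175 CPM to 1223 to 1552 CPM. In adult culture they fell, from 835 to 924 CPM in AdAC direct to 212 to 299 CPM in AdAC CellC. The part of ependymal cells was not tested at either age.

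Hmox1, which encodes the haem-degrading oxygenase, was low in cells that were not cultured and high in all cultures. It stood at 21.6, 21.05, 21.7 and 18.9 CPM in neoAC direct and at 8.73, 9.39, 9.42 and 9.05 CPM in AdAC direct. Adult cultures (AdAC CellC) reached 305, 249, 216 and 199 CPM and neonatal cultures (neoAC CellC) 147, 126, 130 and 126 CPM, beside 95.9, 56.9, 126 and 120 CPM in NSC and 125, 155, 218 and 158 CPM in AGES. Every cultured library lay above every directly isolated one. Hmox1 rose in culture by 2.67 ± 0.19 in neonatal cells (log2, SE, adjusted p = 1.5e-11) and by 4.73 ± 0.21 in adult cells (adjusted p = 1.1e-15), and the rise was larger in adult cells by 2.06 ± 0.26 (interaction, adjusted p = 2.6e-07).

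Txnrd1, the cytosolic thioredoxin reductase, had the same division between cultured and direct cells. It stood at 82.5, 73.7, 82.0 and 73.5 CPM in neoAC direct and at 52.8, 52.2, 51.9 and 52.2 CPM in AdAC direct, against 526, 454, 433 and 450 CPM in AdAC CellC and 465, 406, 437 and 431 CPM in neoAC CellC. The rise was 2.48 ± 0.10 in neonatal cells (log2, SE, adjusted p = 3.2e-16) and 3.15 ± 0.11 in adult cells (adjusted p = 1.9e-18). NSC held 330, 247, 373 and 327 CPM and AGES 157, 181, 211 and 189 CPM, so that all cultures lay above all direct libraries.

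Srxn1, sulfiredoxin, which restores overoxidised peroxiredoxins, was high in primary cultures alone among the 6 groups. AdAC CellC held 229, 185, 184 and 165 CPM and neoAC CellC 208, 184, 223 and 197 CPM. Elsewhere it stayed between 11.9 CPM, in an NSC library, and 39.4 CPM, in an AGES library. It rose in culture by 3.57 ± 0.16 in neonatal cells (log2, SE, adjusted p = 1.1e-15) and by 2.90 ± 0.15 in adult cells (adjusted p = 8.9e-15).

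Nqo1, a quinone reductase often taken as the standard NRF2 readout, had group means within 3.74 times of each other. Its levels ran from 8.62 to 13.7 CPM in AdAC direct, 24.1 to 36.6 CPM in AdAC CellC, 18.4 to 27.7 CPM in neoAC direct and 29.3 to 34.1 CPM in neoAC CellC. It rose in adult culture by 1.25 ± 0.21 (log2, SE, adjusted p = 7.5e-06). In neonatal culture the difference was 0.41 ± 0.20 (adjusted p = 0.079), which passed under other settings. It was 0.63 with library size only (adjusted p = 0.0078), 0.51 with at least 10 counts in every library (adjusted p = 0.026) and 0.37 in a fit of the compared groups only (adjusted p = 0.018).

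The 3 genes of glutathione supply did not move as a unit. Gclc and Gclm encode the catalytic and modifier subunits of glutamate-cysteine ligase, and Slc7a11 encodes the cystine importer xCT that feeds it. Gclc stood at 62.9, 63.2, 64.5 and 69.5 CPM in neoAC direct and at 184, 216, 209 and 197 CPM in neoAC CellC, a rise of 1.63 ± 0.12 (log2, SE, adjusted p = 2.0e-11). In adult cells it ranged from 96.1 to 106 CPM in direct libraries and from 97.9 to 115 CPM in culture, a difference of 0.09 ± 0.12 that did not pass the test (adjusted p = 0.52). Gclm rose by 0.99 ± 0.11 in neonatal culture (adjusted p = 3.6e-08) and by 0.42 ± 0.11 in adult culture (adjusted p = 0.0019).

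Slc7a11 was the only one of the 10 genes to fall in culture at both ages. It stood at 271, 275, 280 and 409 CPM in neoAC direct against 66.0, 57.3, 53.6 and 53.7 CPM in neoAC CellC, and at 154, 187, 155 and 203 CPM in AdAC direct against 84.2, 60.9, 55.3 and 49.2 CPM in AdAC CellC. The fall was 2.42 ± 0.20 in neonatal cells (log2, SE, adjusted p = 4.1e-10) and 1.48 ± 0.20 in adult cells (adjusted p = 4.3e-07). Direct and cultured libraries did not overlap at either age, and the cultures of both ages overlapped.

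**Figure D3:**
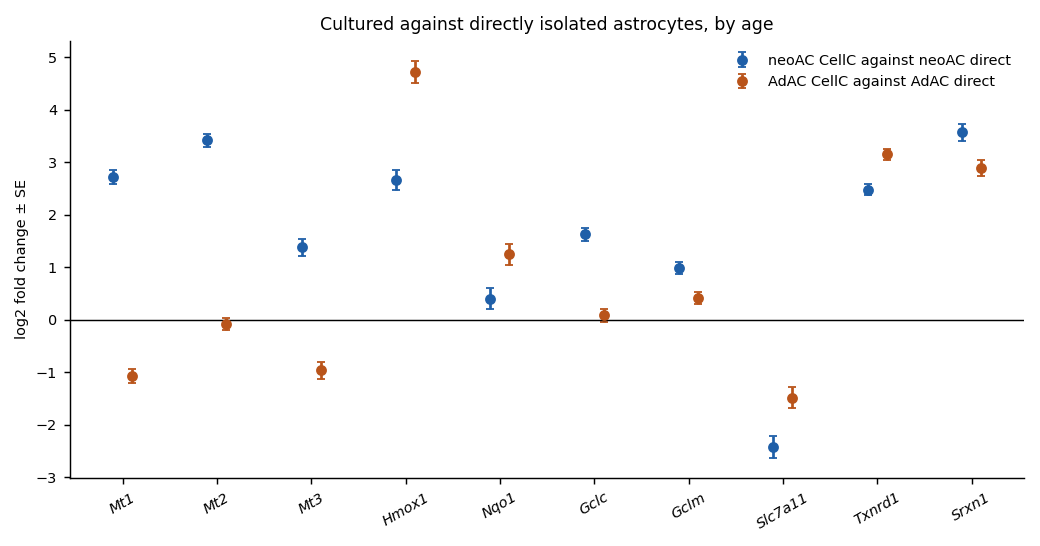
Log2 fold change of CellC against direct for each gene (points) with its standard error (bars), in neonatal and adult cells. Hmox1, Txnrd1 and Srxn1 rose at both ages and Slc7a11 fell at both, while Mt1 and Mt3 rose in neonatal and fell in adult cells.

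The interaction of culture and age was called for 10 of the 10 genes, and for 68.6% of all genes tested. Beside the metallothioneins and Hmox1, it was 1.55 for Gclc, 0.58 for Gclm and 0.67 for Srxn1 (larger change in neonatal cells), and -0.84 for Nqo1, -0.94 for Slc7a11 and -0.67 for Txnrd1. Both culture comparisons share no libraries with each other.

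Genes of the same pathways were counted from lists chosen from textbook knowledge. Of 20 other NRF2 targets, 15 were higher and 1 was lower in neonatal culture, with a median log2 change of 0.88, where 34.4% and 31.3% of all genes were called and their median was 0.041. In adult culture 13 were higher and 1 was lower, with a median of 0.93, beside 38.8% and 39.2% of all genes and a median of 0. The largest rise at both ages was that of Osgin1, an oxidative stress growth inhibitor, by 4.38 ± 0.40 in neonatal cells (adjusted p = 1.4e-09) and by 4.13 ± 0.36 in adult cells (adjusted p = 3.7e-10). Among the listed NRF2 targets the largest fall was that of Me1, malic enzyme, in neonatal culture (-0.44 ± 0.08, adjusted p = 4.2e-05) and of Aox1, aldehyde oxidase, in adult culture (-0.95 ± 0.11, adjusted p = 2.5e-08).

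Nfe2l2 itself rose in culture, from a mean of 59.5 to 200 CPM in neonatal cells (1.75 ± 0.06, adjusted p = 2.0e-17) and from 67.9 to 182 CPM in adult cells (1.42 ± 0.06, adjusted p = 2.1e-16). Of 9 NRF2 regulators 6 were higher and 3 lower in neonatal culture, and 7 were higher and 0 lower in adult culture by edgeR, against the same shares of all genes (34.4% and 31.3%, then 38.8% and 39.2%). The list mixes partners of NRF2 with genes such as Keap1 that hold it back, so these counts give no direction of NRF2 activity. Maff, which encodes a small MAF partner of NRF2, rose most in adult culture (4.44 ± 0.24, adjusted p = 3.6e-14) and fell most in neonatal culture (-1.37 ± 0.21, adjusted p = 3.2e-06). In neoAC direct Maff stood beside high dissociation-response genes, whose part was not tested. Mean Keap1 went from 51.9 CPM in direct to 68.9 CPM in cultured neonatal cells, and from 50.4 to 65.2 CPM in adult cells. Mean Bach1 went from 41.1 to 21.5 CPM in neonatal and from 31.1 to 34.1 CPM in adult cells.

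Slc7a11 is also a target of ATF4, the factor of the amino acid response. Of 9 genes of that response, 7 were higher and 1 lower in adult culture (median 2.55), and 4 were higher and 5 lower in neonatal culture (median -0.37). Trib3, a pseudokinase induced by ATF4, had the largest rise at both ages, by 5.97 ± 0.42 in adult cells (adjusted p = 9.0e-12) and 4.13 ± 0.47 in neonatal cells (adjusted p = 5.3e-08). Atf4 itself fell most in neonatal culture, from 434 to 90.6 CPM (-2.26 ± 0.11, adjusted p = 3.3e-15). Psat1 fell most in adult culture (-0.97 ± 0.10, adjusted p = 3.0e-09). The shares of all genes were 38.8% higher and 39.2% lower in adult and 34.4% and 31.3% in neonatal culture.

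Of 22 genes of zinc and copper handling 21 were tested. In adult culture 11 were higher and 7 lower, and in neonatal culture 6 were higher and 8 lower. Over all genes the shares were 38.8% and 39.2% in adult and 34.4% and 31.3% in neonatal culture, near which most of these counts lie and against which the lists that follow in this paragraph also stand. Slc30a10, a manganese exporter of the zinc transporter family, fell most at both ages, from 226 to 7.65 CPM in neonatal cells (-4.88 ± 0.15, adjusted p = 1.2e-18) and from 102 to 0.734 CPM in adult cells (-7.13 ± 0.19, adjusted p = 2.7e-20). Of 20 further glutathione and peroxide enzymes, 13 were higher at each age, with 5 lower in neonatal and 4 lower in adult culture. Gpx1, glutathione peroxidase 1, had the largest rise at both ages, by 2.15 ± 0.13 in neonatal cells (adjusted p = 4.2e-13) and 3.17 ± 0.14 in adult cells (adjusted p = 2.2e-16). Of 7 glucocorticoid-responsive genes 4 were higher and 2 lower in neonatal culture, and 1 was higher and 4 were lower in adult culture. Sult1a1 rose most (2.63 ± 0.27, adjusted p = 5.9e-09) and Per1 fell most (-1.05 ± 0.16, adjusted p = 2.2e-06) in neonatal culture. The 1 higher gene in adult culture was Fkbp5 (3.40 ± 0.28, adjusted p = 2.1e-10), and Tsc22d3 fell most there (-2.41 ± 0.11, adjusted p = 2.1e-16). Of 10 genes of haem and iron handling, 3 were higher and 5 lower in neonatal culture and 5 were higher and 4 lower in adult culture.

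How the stem cells changed on becoming astrocytes was asked by setting AGES against NSC. Of the 10 genes 5 were higher in AGES, where 31.7% of all genes were, and 4 were lower, where 34.0% were. All 3 metallothioneins rose steeply, Mt1 by 5.75 ± 0.15 (log2, SE, adjusted p = 1.7e-20), Mt2 by 7.90 ± 0.16 (adjusted p = 4.1e-22) and Mt3 by 5.25 ± 0.19 (adjusted p = 3.0e-18). By means this was 53.9-fold, 240-fold and 38.1-fold. The summed astrocyte markers rose over the same step, from 1589 to 1976 CPM in NSC to 51454 to 56354 CPM in AGES. Of the 6 markers 4 were higher in AGES and 2 were not called, beside the same shares of all genes. Such a sum leans on its most abundant markers. Against neoAC CellC, 1 of the 6 was higher in AGES and 3 were lower, where 34.1% and 40.5% of all genes were.

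The NRF2 readouts went both ways over this step. Srxn1 rose by 0.90 ± 0.15 (log2, SE, adjusted p = 8.9e-06) and Hmox1 by 0.72 ± 0.18 (adjusted p = 0.0010), although the Hmox1 libraries of the 2 groups overlapped. Txnrd1 fell by 0.79 ± 0.10 (adjusted p = 1.1e-07), Gclc by 0.81 ± 0.13 (adjusted p = 2.8e-06) and Gclm by 0.37 ± 0.11 (adjusted p = 0.0067). Nqo1 did not pass, at 0.43 ± 0.20 (adjusted p = 0.062), but passed with the size factors of DESeq2 at 0.51 (adjusted p = 0.026), with at least 10 counts in every library at 0.54 (adjusted p = 0.017) and in DESeq2's own test at 0.51 (adjusted p = 0.019). It also passed without AGES replicate 1 or 2 or NSC replicate 3 or 4, at 0.507 to 0.559.

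Slc7a11 was lowest in AGES, where it stood near 1 CPM. It stood at 10.2, 13.8, 17.9 and 8.73 CPM in NSC and at 0.936, 0.899, 1.60 and 1.91 CPM in AGES. The fall was 3.24 ± 0.27 (log2, SE, adjusted p = 1.5e-10), with no overlap of libraries. The highest group mean of this gene, in neoAC direct, was 231 times that of AGES.

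Of the 20 other NRF2 targets 4 were higher and 9 lower in AGES than in NSC, beside 31.7% and 34.0% of all genes. Fth1, ferritin heavy chain, rose from 1486 to 5218 CPM (1.81 ± 0.15, adjusted p = 5.9e-11) and Cbr3, carbonyl reductase 3, fell from 44.7 to 4.94 CPM (-3.18 ± 0.15, adjusted p = 8.9e-16). The zinc transporter gene Slc39a12 rose beside the metallothioneins, from 1.72 to 384 CPM (7.79 ± 0.22, adjusted p = 8.2e-20), and Slc39a10 fell from 158 to 31.6 CPM (-2.32 ± 0.10, adjusted p = 5.5e-17). Mtf1, the zinc sensor of the metallothionein genes, had means of 26.5 CPM in NSC and 33.9 CPM in AGES. Of 7 glucocorticoid-responsive genes 5 were higher and 1 was lower, beside the same shares of all genes. The largest rise was that of Sult1a1, from 0.359 to 7.58 CPM (4.41 ± 0.35, adjusted p = 3.0e-11). The 1 lower gene was Fkbp5, which fell from 90.4 to 15.9 CPM (-2.50 ± 0.27, adjusted p = 1.9e-08).

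How close AGES come to primary cultures was asked next. Against AdAC CellC, 4 of the 10 genes were higher in AGES, where 31.0% of all genes were, and 6 were lower, where 45.2% were. Against neoAC CellC, 3 were higher, where 34.1% were, and 6 were lower, where 40.5% were. The AGES libraries are the same in both comparisons.

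The low side was shared by Gclc, Gclm, Slc7a11, Txnrd1 and Srxn1 in both comparisons. Slc7a11 was lower by -5.54 ± 0.27 than in AdAC CellC (log2, SE, adjusted p = 5.6e-15) and by -5.42 ± 0.27 than in neoAC CellC (adjusted p = 8.2e-15). Srxn1 differed by -2.72 ± 0.15 (adjusted p = 2.0e-14) and -2.81 ± 0.15 (adjusted p = 1.1e-14) in the same order, and Gclc by -2.07 ± 0.13 (adjusted p = 1.2e-13) and -2.95 ± 0.13 (adjusted p = 1.4e-16). Txnrd1 differed by -1.34 ± 0.10 (adjusted p = 6.5e-12) and -1.24 ± 0.10 (adjusted p = 3.1e-11).

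Metallothioneins stood apart from this. Mt1 was higher in AGES than in AdAC CellC by 3.27 ± 0.14 (adjusted p = 3.6e-17), Mt3 by 3.09 ± 0.17 (adjusted p = 9.1e-15) and Mt2 by 0.73 ± 0.12 (adjusted p = 3.7e-06). Against neoAC CellC, Mt2 was lower by -1.81 ± 0.12 (adjusted p = 5.1e-13), whereas Mt1 was higher by 0.54 ± 0.12 (adjusted p = 0.00039) and Mt3 by 0.54 ± 0.16 (adjusted p = 0.0032). The last 2 calls were lost with library size only, Mt1 at 0.24 (adjusted p = 0.0795) and Mt3 at 0.23 (adjusted p = 0.17), and that of Mt3 also with at least 10 counts in every library, at 0.33 (adjusted p = 0.063). The median of all genes in this comparison was -0.070 with TMM and -0.37 with library size only.

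Against AdAC CellC, Hmox1 was lower in AGES, at -0.56 ± 0.18 (adjusted p = 0.0061), a call lost without the filter on low counts (adjusted p = 0.059). It did not pass against neoAC CellC, at 0.31 ± 0.18 (adjusted p = 0.12), but did without AGES replicate 1, at 0.42 (adjusted p = 0.042). Nqo1 was higher than in AdAC CellC by 0.66 ± 0.20 (adjusted p = 0.0045) and than in neoAC CellC by 0.47 ± 0.20 (adjusted p = 0.038), with overlapping libraries in both. The first of these calls was lost with library size only, at 0.43 (adjusted p = 0.052). The second was lost with the size factors of DESeq2 (adjusted p = 0.072), library size only (0.49), no filter (0.052), at least 10 counts in every library (0.24), a fit of the compared groups only (0.052) and DESeq2's own test (0.066). It was also lost without any 1 of AGES replicates 3 and 4 and neoAC CellC replicates 1, 2 and 4 (adjusted p = 0.17, 0.11, 0.076, 0.059 and 0.059).

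**Figure D4:**
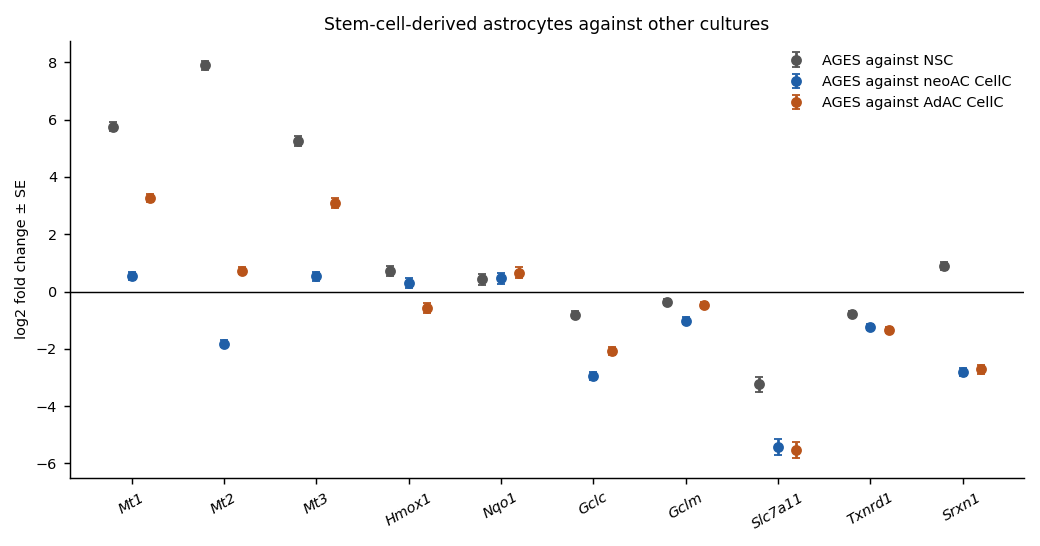
Log2 fold change of AGES against NSC, neoAC CellC and AdAC CellC for each gene (points) with its standard error (bars). Slc7a11, Gclc, Gclm and Txnrd1 lie below 0 in all 3 comparisons. Mt1, Mt3 and Nqo1 lie above 0 in all 3, although Nqo1 did not pass the test against NSC.

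Age was compared in culture and in direct isolates. Between cultures, 5 of the 10 genes were higher in neoAC CellC, where 28.5% of all genes were, and 1 was lower, where 35.2% were. The 3 metallothioneins were higher in neonatal cultures by 2.72 ± 0.13 for Mt1 (log2, SE, adjusted p = 7.6e-15), 2.55 ± 0.12 for Mt2 (adjusted p = 6.5e-15) and 2.55 ± 0.16 for Mt3 (adjusted p = 1.3e-12). Gclc was higher by 0.88 ± 0.12 (adjusted p = 7.3e-07) and Gclm by 0.55 ± 0.11 (adjusted p = 0.00015), and Hmox1 was lower by -0.87 ± 0.18 (adjusted p = 0.00016).

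Txnrd1, Srxn1, Slc7a11 and Nqo1 did not pass the test between the cultures, with differences of -0.10 ± 0.10, 0.09 ± 0.14, -0.11 ± 0.20 and 0.19 ± 0.20 on the log2 scale. Their libraries overlapped. The astrocyte markers, all 6 of them, were higher in the neonatal cultures, and all 5 mature oligodendrocyte markers were lower. All 3 ependymal markers were also higher in the neonatal cultures. The part of cell composition in the metallothionein difference was not tested. Of 9 ATF4 genes 0 were higher and 8 lower in neonatal culture by edgeR, beside 28.5% and 35.2% of all genes, led by Ddit3, a stress transcription factor, at 16.8 against 142 CPM (-3.08 ± 0.12, adjusted p = 2.4e-16).

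In direct isolates 4 of the 10 genes were higher in neonatal cells, where 35.0% of all genes were, and 4 were lower, where 36.4% were. Hmox1 was higher by 1.18 ± 0.19 (log2, SE, adjusted p = 8.0e-06), Nqo1 by 1.03 ± 0.21 (adjusted p = 9.8e-05), Slc7a11 by 0.82 ± 0.19 (adjusted p = 0.00066) and Txnrd1 by 0.58 ± 0.10 (adjusted p = 1.6e-05). Mt1 was lower by -1.07 ± 0.13 (adjusted p = 3.9e-08), Mt2 by -0.95 ± 0.12 (adjusted p = 9.6e-08), Gclc by -0.66 ± 0.12 (adjusted p = 3.3e-05) and Srxn1 by -0.58 ± 0.15 (adjusted p = 0.0012).

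Mt3 did not pass between the direct isolates, at 0.21 ± 0.15 (adjusted p = 0.23), and 1 library decided this: without neoAC direct replicate 4, the one with more mitochondrial counts, the difference was 0.35 (adjusted p = 0.0367). Gclm did not pass either, at -0.02 ± 0.11 (adjusted p = 0.87). Mature oligodendrocyte markers were present in the adult isolates and near absent in the neonatal ones, and dissociation-response genes were higher in the neonatal ones, at the sums given above. All 3 ependymal markers were lower in the neonatal isolates. The part of any of these marker sets in the differences was not tested.

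The gene most like each member was found by the root mean square difference of centred log2 CPM over the 24 libraries, among 15104 genes. For Mt1 and Mt3 it was Cxcr4, at 0.49 and 0.43, and for Mt2 it was Crb2, at 0.67. For the remaining members it was Ror1 for Hmox1 (0.40), Nbdy for Nqo1 (0.26), Gstm6 for Gclc (0.30), Klhl42 for Gclm (0.16), Cdh10 for Slc7a11 (0.75), Sesn2 for Txnrd1 (0.36) and Gm20559 for Srxn1 (0.53). Among pairs of members, Hmox1 and Slc7a11 differed most, at 3.90.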

How the data were processed

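RNA-seq libraries of 24 samples in 6 groups of 4 were compared. Per the labels and the study's methods, the authors prepared stranded mRNA libraries, aligned reads to GRCm38 with STAR (2.7.3a in the submitters' processing notes), counted reads over exons of Gencode genes with featureCounts and deposited raw counts per gene; the strand setting of the counting is not given in the sources used here. Replicates were separate isolations or cultures from different passages. Genes were named with Gencode M21, which held 49412 of the 49671 deposited identifiers. Genes were filtered with filterByExpr (19691 kept), scaled by TMM and tested with edgeR 4.0.16 in 1 quasi-likelihood fit of 6 groups (R 4.3.3), two-sided, with Benjamini-Hochberg adjustment over all genes kept and a threshold of 0.05. Standard errors were computed from the fold change and F. DESeq2 1.42.0, other scalings and filters, fits of the compared groups only and the omission of each replicate were alternatives. The test was also run on simulated counts with 1 fixed spread and few changed genes, moved up or down at random. That setting is simpler than these data, where large shares of all genes were called, so it does not check the scaling here. The members and gene lists were chosen with earlier results of these data known. The genes named outside the set were its regulators, the called gene with the largest rise and fall of a list, and the gene most like each member. Protein sequences were not used here.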

Additional observations from a re-analysis of the deposited data

Results flagged for a closer look

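In 4 of the 60 sets of 4 libraries (10 genes in 6 groups), 1 library lay far from the others relative to the range of its group, and chance alone flags about 1 set in 20. Mt3 in neoAC CellC replicate 3 stood at 1735 CPM against 1366 to 1406 CPM in the others. Nqo1 in AdAC CellC replicate 1 stood at 36.6 CPM against 24.1 to 25.6 CPM. Gclm and Slc7a11 were both high in neoAC direct replicate 4, at 100.5 CPM against 76.9 to 77.7 CPM and at 409 CPM against 271 to 280 CPM.

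The change in culture differed between neonatal and adult cells for all 10 genes by the interaction test of edgeR (neonatal minus adult, log2), as it did for 68.6% of all genes. The change was larger or more positive in neonatal cells for Mt1 (3.80, adjusted p = 3.0e-15), Mt2 (3.49, adjusted p = 3.6e-15), Mt3 (2.34, adjusted p = 1.1e-09), Gclc (1.55, adjusted p = 1.9e-08), Gclm (0.58, adjusted p = 0.0028) and Srxn1 (0.67, adjusted p = 0.0054). It was more positive in adult cells for Hmox1 (-2.06, adjusted p = 2.6e-07), Nqo1 (-0.84, adjusted p = 0.012), Slc7a11 (-0.94, adjusted p = 0.0047) and Txnrd1 (-0.67, adjusted p = 0.00016).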

How the results depend on the processing

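The counts of the 10 genes called in each direction stayed within 1.5 times under all alternatives run, except for the genes higher in AGES than in neoAC CellC, which went from 3 to 0 with library size only and to 1 with at least 10 counts in every library. That scaling moved the median gene in the comparison to -0.37. Some differences that were not called changed sign: Mt2 in adult culture was 0.002 with library size only, Gclc there -0.014 with no filter, and Txnrd1 between the cultures 0.006 with the size factors of DESeq2, 0.001 with at least 10 counts in every library and 0.006 with the DESeq2 Wald test. Slc7a11 between the cultures was 0.001 with the replicate number as a block and ran from -0.206 to 0.072 (without AdAC CellC replicate 1) over the omission of single replicates. Gclm between direct isolates was 0.016 with no filter and -0.127 to 0.053 over the omission of single replicates, above 0 in 4 of them (0.008, 0.01, 0.012 and 0.053). The cause was not tested.

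Same-numbered libraries correlated at -0.14 to 0.29 in their deviations from the group means, and 7 of 28 matched their own number best, so the numbers were not taken to pair samples. With the replicate block, Nqo1 passed in neonatal culture at 0.38 (adjusted p = 0.012) and in AGES against NSC at 0.50 (adjusted p = 0.0020), and Hmox1 in AGES against AdAC CellC no longer did, at -0.48 (adjusted p = 0.078). Hmox1 in AGES against neoAC CellC passed without AGES replicate 1, at 0.42 (adjusted p = 0.042).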
